A study of Arabidopsis thaliana with 8 samples.

Results

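RNA of Arabidopsis thaliana seedlings that had recovered for 12 h from long heat (LHSR12) was compared with RNA of control seedlings (CTRL). The comparison uses 4 of the 8 libraries of the series, chosen by their labels, with 2 libraries in each group, and covers all loci of the deposited table. All seedlings were wild type of the ecotype Columbia and are described as 7 days old. LHSR12 seedlings spent 30 h at 37 °C and then 12 h at 22 °C, and no treatment is given for CTRL. The other 4 libraries were taken directly after the heat (LHS) and after 84 h of recovery (LHSR84). They entered the fit to estimate the spread, and their levels are given where a gene needs them. Whole seedlings were measured, so fewer cells of a type and less RNA per cell cannot be told apart.

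Heat unfolds proteins, and plant heat shock factors answer by switching on chaperones that hold or refold them. After the stress, plants replace damaged proteins, resume photosynthesis and growth, and in many cases change their defence and hormone signalling. The plant circadian clock is a loop in which the morning proteins CCA1 and LHY repress evening genes, partly through a promoter sequence named the evening element.

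Levels are given as scaled reads, meaning reads of a locus after division by one factor per library. Gene length is not taken into account, so levels were compared between libraries and not between genes. The CTRL libraries held 18.9 M and 22.2 M reads at gene loci (M for 1e6), and the LHSR12 libraries 28.3 M and 28.1 M. Replicates differed by a median of 0.26 in CTRL and 0.20 in LHSR12, as absolute log2 differences over loci. Separate cultures are not stated for the replicates, and the spread behind each p-value may therefore be technical. Changes are log2 fold changes of LHSR12 over CTRL on the scale log2(scaled reads + 1) with their standard errors. "Rose" and "fell" are used for limma adjusted p below 0.05.

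Of 24624 gene loci tested, 11342 (46.1%) were called, 5999 (24.4%) higher and 5343 (21.7%) lower in LHSR12. The median change over all of them was 0.05, and the counts of members given for each gene list stand against these shares. The lists were chosen with earlier results of these data known, so a list count far from these shares may partly reflect that choice. At 8-fold or more, 1081 gene loci were higher and 446 lower. There were 719 called loci with no read in either CTRL library and 84 with none in either LHSR12 library. The groups did not overlap at 17662 (71.7%) of the gene loci tested, so a lack of overlap in a named gene is common. The plot of all gene loci shows that the largest changes were found from low to high levels.

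**Figure D1:**
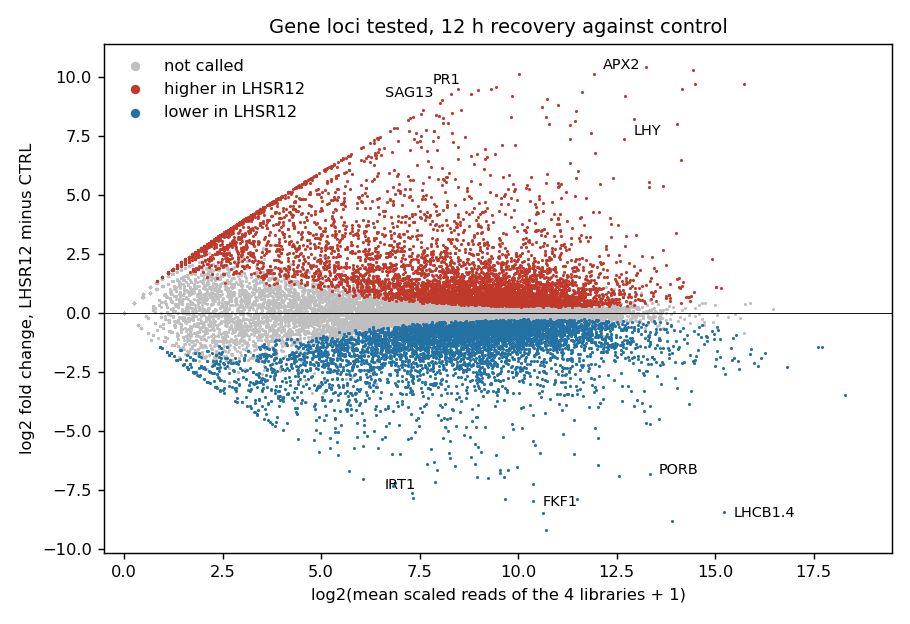
Each point is 1 of 24624 gene loci tested, with the mean level of the 4 libraries on the horizontal axis (log2 scale) and the log2 fold change of LHSR12 over CTRL on the vertical axis. Red marks the 5999 loci called higher and blue the 5343 called lower, and 8 named genes are labelled.

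Among genes with a symbol, the largest rise was that of APX2 (AT3G09640), a cytosolic ascorbate peroxidase that removes hydrogen peroxide. It had 4.06 and 8.58 in CTRL and 8680 and 6904 in LHSR12, and both LHSR12 libraries lay far above both CTRL libraries (log2 fold change 10.12 ± 0.39 (SE), adjusted p = 8.34e-07). The other 9 of the 10 largest rises were CYP71A13, LURP1, ANK, SAG13, PR1, AIG1, TPS04, ATHSP22.0 and ABCF2. TPS04 (AT1G61120), the geranyllinalool synthase that makes a volatile homoterpene precursor, had 0 and 1.07 in CTRL and 716 and 1075 in LHSR12, a read ratio of 1494 (exact 95% interval 268 to 59038) at adjusted p = 2.39e-06. AIG1 (AT1G33960), known from its induction by a bacterial avirulence gene, had 8.13 and 8.58 in CTRL and 4924 and 7700 in LHSR12 (log2 fold change 9.36 ± 0.39 (SE), adjusted p = 1.17e-06). ABCF2 (AT5G09930), an ABC protein of the GCN subfamily, had 1.35 and 3.22 in CTRL and 1960 and 1700 in LHSR12 (adjusted p = 1.32e-06). In all of these genes the groups were separated by orders of magnitude.

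The 10 largest falls among genes with a symbol were LHB1B1 (named LHCB1.4 below), FKF1, RbcX1, CYP716A2, PEN3, FRO5, ELF4, IRT1, COR27 and GRP7. RbcX1 (AT4G04330), an assembly chaperone of Rubisco, had 2146 and 1118 in CTRL and 6.89 and 4.64 in LHSR12 (log2 fold change -7.86 ± 0.32 (SE), adjusted p = 1.02e-06). FRO5 (AT5G23990), a metal reductase of the FRO family, had 2343 and 2938 in CTRL and 16.9 and 15.5 in LHSR12 (log2 fold change -7.26 ± 0.42 (SE), adjusted p = 5.74e-06). The LHSR12 libraries of both genes agreed closely, and both lay below every CTRL value. CYP716A2 (AT5G36140), a cytochrome P450, had 229 and 409 in CTRL and 0 and 0.773 in LHSR12, a ratio of CTRL to LHSR12 reads of 856 (exact 95% interval 153 to 33852) at adjusted p = 2.05e-05. PEN3 (AT5G36150), annotated as a putative pentacyclic triterpene synthase, lay beside it and had 157 and 292 in CTRL and 0 and 0.773 in LHSR12, with a CTRL to LHSR12 read ratio of 604 (exact 95% interval 108 to 23899) at adjusted p = 1.13e-04.

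The clock lists moved in opposite directions. Of 13 morning clock genes, 11 rose and 1 fell (median 3.22), and of 13 evening clock genes 0 rose and 12 fell (median -4.23). LHY (AT1G01060) had 107 and 57.9 in CTRL and 12504 and 13841 in LHSR12 (log2 fold change 7.37 ± 0.25 (SE), adjusted p = 6.19e-07), and its partner CCA1 (AT2G46830) had 92.1 and 55.8 in CTRL and 7531 and 8229 in LHSR12 (log2 fold change 6.76 ± 0.22 (SE), adjusted p = 5.63e-07). Both MYB factors were thus high in both recovering libraries and low in both controls. Their relatives RVE8 and RVE1 rose by 5.15 and 3.94, and LNK3, a coactivator that works with RVE8, by 5.51. PRR9, the first of the pseudo-response regulators to peak in the day, rose by 3.38. PRR7 (AT5G02810), which peaks after it, was the 1 member that fell (5273 and 2717 in CTRL and 1205 and 1147 in LHSR12, log2 fold change -1.69 ± 0.26 (SE), adjusted p = 0.00107), and CDF1, a repressor of flowering, did not pass the test at 0.09.

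On the evening side, FKF1 (AT1G68050), the blue-light receptor that promotes flowering in long days, had 3162 and 2160 in CTRL and 6.89 and 13.1 in LHSR12 (log2 fold change -7.95 ± 0.30 (SE), adjusted p = 7.60e-07). ELF4 (AT2G40080), a subunit of the evening complex, had 226 and 236 in CTRL and 1.53 and 0 in LHSR12, a CTRL to LHSR12 read ratio of 301 (exact 95% interval 82.8 to 2494) at adjusted p = 9.39e-06. Its complex partners had log2 fold changes of -4.23 for LUX and -2.46 for ELF3. GRP7 (AT2G21660), an RNA-binding protein of a slave oscillator, had 13142 and 10886 in CTRL and 168 and 57.2 in LHSR12 (log2 fold change -6.91 ± 0.41 (SE), adjusted p = 6.66e-06), and COR27 (AT5G42900), a clock gene that also answers to cold, had 1693 and 1465 in CTRL and 6.13 and 21.7 in LHSR12 (log2 fold change -6.95 ± 0.44 (SE), adjusted p = 8.72e-06). Every one of these evening genes was lower in both LHSR12 libraries than in either CTRL library. Groups that did not overlap were found at 71.7% of all gene loci tested. LKP2, a relative of FKF1, did not pass the test at -0.15. At the end of the heat the means were 670 for FKF1, 1527 for COR27 and 34.8 for LHY. The labels give no time of day at harvest, so time of day, recovery and the heat before it cannot be told apart.

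**Figure D2:**
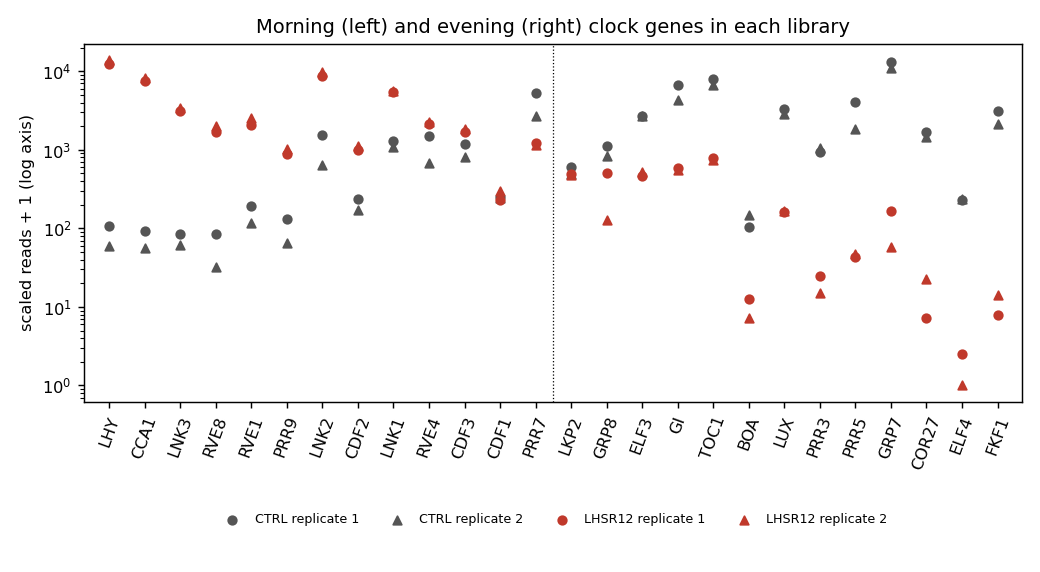
Scaled reads plus 1 on a log axis for the 13 morning genes (left of the dotted line) and 13 evening genes (right) in each CTRL (grey) and LHSR12 (red) library. LHY rises from 107 and 57.9 to 12504 and 13841, whereas FKF1 falls from 3162 and 2160 to 6.89 and 13.1.

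The evening element, AAAATATCT on either strand, was searched for in the 250 bases before the annotated start of every tested protein-coding gene. It was present in 8 of 13 evening genes and in 0 of 13 morning genes, against 2.44% of all 22797 promoters. Its share was 4.59% among genes called lower and 1.71% among genes called higher. Among genes that fell at least 8-fold, 43 of 433 promoters (9.93%) held it, against 1.54% of the 780 that rose at least 8-fold. The G box, CACGTG, which reads the same on both strands, was present in 7 of 13 morning genes against 7.29% of all promoters, 9.36% of genes at least 8-fold higher and 11.1% of those at least 8-fold lower. Neither motif lies within the other. The windows of ELF4, GI and PRR9 held no evening element. A match is a run of letters and not a measured binding site. The promoters below, from RefSeq TAIR10.1, show FKF1 and GRP7, evening genes among the 10 largest falls, with the evening element in capitals, and LHY with its G box in capitals. The first base printed is 250 bases before the start.
FKF1, chr1:25508389-25508638, plus strand: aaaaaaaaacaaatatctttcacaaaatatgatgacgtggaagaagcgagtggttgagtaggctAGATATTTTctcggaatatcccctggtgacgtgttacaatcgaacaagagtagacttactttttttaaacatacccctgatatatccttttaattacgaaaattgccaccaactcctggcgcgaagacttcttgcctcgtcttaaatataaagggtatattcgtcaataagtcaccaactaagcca
GRP7, chr2:9266558-9266807, minus strand: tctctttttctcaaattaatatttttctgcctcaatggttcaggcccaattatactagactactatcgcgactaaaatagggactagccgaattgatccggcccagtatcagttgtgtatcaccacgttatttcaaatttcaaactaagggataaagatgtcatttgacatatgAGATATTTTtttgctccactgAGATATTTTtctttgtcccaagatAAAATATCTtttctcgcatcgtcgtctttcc
LHY, chr1:37872-38121, minus strand: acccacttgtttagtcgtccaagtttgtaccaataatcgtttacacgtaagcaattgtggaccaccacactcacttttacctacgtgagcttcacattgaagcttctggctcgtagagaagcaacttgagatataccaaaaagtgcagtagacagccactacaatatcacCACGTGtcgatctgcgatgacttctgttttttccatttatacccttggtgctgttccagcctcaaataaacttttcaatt
GRP7 holds 3 copies of the element, all within the last 76 bases before the start, and FKF1 holds 1 farther upstream.

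**Figure D3:**
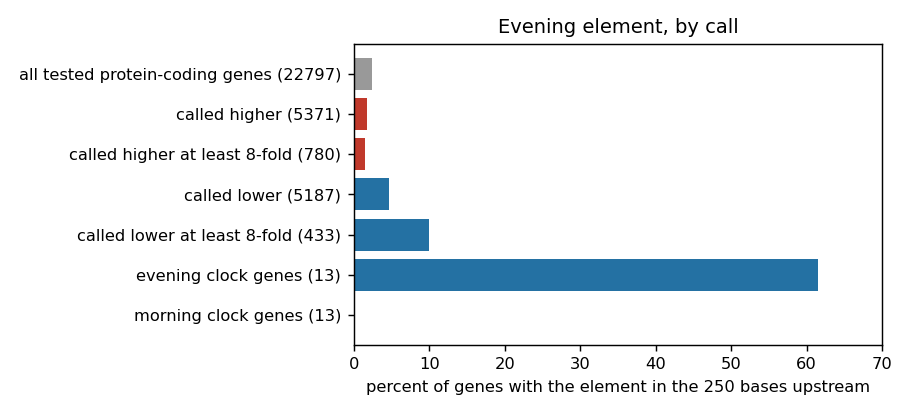
Bars give the percent of genes whose 250 upstream bases hold the evening element, with the number of genes in brackets and the set of genes on the vertical axis. The share is 2.44% over all genes, 9.93% among genes that fell at least 8-fold and 61.5% among the evening clock genes.

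Many heat response genes stood above control after 12 h. Of 15 small heat shock proteins, chaperones that bind unfolding proteins, 14 rose and 0 fell (median 7.36), with 1 lower in edgeR or DESeq2 on the reads. Their level was lower in CTRL replicate 1 than in CTRL replicate 2 by a median of 1.03 on the log2 scale. ATHSP22.0 (AT4G10250), of the endoplasmic reticulum, had 9.48 and 48.3 in CTRL and 15428 and 11581 in LHSR12 (log2 fold change 9.20 ± 0.63 (SE), adjusted p = 1.29e-05) after a mean of 65729 in LHS. HSA32 (AT4G21320), a protein needed for lasting heat tolerance, had 46.1 and 66.5 in CTRL and 3400 and 3275 in LHSR12 (log2 fold change 5.89 ± 0.20 (SE), adjusted p = 6.43e-07), with a mean of 5828 in LHS. Its level after recovery was thus nearer to that of the heated seedlings than for HSP21, the chloroplast small heat shock protein, whose mean was 62495 in LHS and 5641 in LHSR12.

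Of 21 larger chaperones 14 rose and 1 fell (median 1.65). The member that fell was the constitutive cytosolic HSP70-1 (AT5G02500), with 50791 and 70408 in CTRL and 29350 and 27472 in LHSR12 (log2 fold change -1.07 ± 0.22 (SE), adjusted p = 0.00470). Without LHSR12 replicate 2 it was not called and 0 fell, and without CTRL replicate 1 6 fell. The inducible HSP70 (AT3G12580) rose in the same libraries, with 417 and 901 in CTRL and 27460 and 23205 in LHSR12 (log2 fold change 5.36 ± 0.30 (SE), adjusted p = 4.92e-06). The heat shock factors split, with 7 of 20 higher and 4 lower (median 0.38). HSFB2A (AT5G62020), a repressor, had 248 and 259 in CTRL and 2822 and 2801 in LHSR12 (log2 fold change 3.47 ± 0.13 (SE), adjusted p = 7.60e-07). HSFA6B (AT3G22830), a factor known from abscisic acid and heat signalling, fell (log2 fold change -4.25 ± 0.56 (SE), adjusted p = 4.15e-04), and HSFA7A (AT3G51910) had 786 and 436 in CTRL and 103 and 128 in LHSR12 (log2 fold change -2.34 ± 0.25 (SE), adjusted p = 1.35e-04). HSFA7A was thus below its control level in both recovering libraries, although it had a mean of 1139 in LHS.

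The site II letters TGGGCC, searched on either strand of the 250 bases before the start, were found in 10 of the 15 small heat shock protein genes, against 15.4% of all promoters. They were not more frequent among risers at large, with 15.2% of genes called higher and 10.4% of those at least 8-fold higher. Of 5 motifs searched in all, the W box, in the form TTGACC only, was found in 0 of 26 promoters of salicylic acid genes, against 12.2% of all. The mitosis-specific activator core, AACGGC, was found in 6 of 20 cell division genes, against 5.80% of all. Both were searched on either strand as these exact letters, so other forms of either motif, and sites farther upstream, were not counted.

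Genes of immunity were also among the large rises. Salicylic acid is the hormone of defence against pathogens that feed on living cells, and 24 of 26 genes of its synthesis and response rose while 0 fell, with changes from -0.04 to 9.45. The enzymes of its synthesis rose unevenly, by 1.88 for ICS1, which makes isochorismate, and by 5.84 for PBS3, which couples it to glutamate. The factors that switch on ICS1 rose by 4.57 (SARD1) and 2.55 (CBP60G). DLO1 and DMR6, hydroxylases that inactivate salicylic acid, also rose, by 5.15 and 2.19. PR2 (AT3G57260), a secreted glucanase, had 4.06 and 3.22 in CTRL and 816 and 794 in LHSR12 (log2 fold change 7.45 ± 0.47 (SE), adjusted p = 8.88e-06). The receptor NPR1 (-0.04) and ALD1 (0.68), which makes a precursor of N-hydroxypipecolic acid, did not pass the test, whereas FMO1, which acts after ALD1, rose by 4.83.

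Genes of immunity triggered by microbial patterns gave 13 of 22 higher and 2 lower (median 1.01). WAK3 (AT1G21240), a wall-associated kinase, had 0 and 2.15 in CTRL and 264 and 537 in LHSR12, a read ratio of 334 (exact 95% interval 92.2 to 2761) at adjusted p = 4.51e-05. MPK11 (AT1G01560), a mitogen-activated kinase, had 0 and 0 in CTRL and 152 and 275 in LHSR12 and was at least 58.6-fold higher (adjusted p = 2.12e-05). The receptor kinase SOBIR1 and the receptor EFR rose by 1.87 and 1.36, while the receptor FLS2 (-0.67) and the marker FRK1 (-0.06) did not pass the test. WRKY29 (AT4G23550) fell from 340 and 279 to 110 and 117 (log2 fold change -1.44 ± 0.26 (SE), adjusted p = 0.00233). The coreceptor BAK1 fell by 0.68 and was not called without LHSR12 replicate 1, which left 1 lower.

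The genes of camalexin, the main phytoalexin of Arabidopsis, included 5 of 8 that rose and 0 that fell (median 1.21), with 3 higher without LHSR12 replicate 2. CYP71A13 (AT2G30770), which makes indole-3-acetonitrile, had 0 and 2.15 in CTRL and 1342 and 2842 in LHSR12, a read ratio of 1744 (exact 95% interval 483 to 14408) at adjusted p = 1.23e-05. PAD3 (AT3G26830), the enzyme of the last step, had 106 and 167 in CTRL and 1615 and 3701 in LHSR12 (log2 fold change 4.19 ± 0.46 (SE), adjusted p = 1.65e-04). The LHSR12 libraries differed from each other about as much in both genes, with replicate 2 the higher, but did not overlap CTRL. LHS had means of 0.507 and 81.7.

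Jasmonic acid acts in wounding and defence, and 8 of 20 of its genes rose and 4 fell (median 0.40). TAT3 (AT2G24850), a tyrosine aminotransferase, had 5.42 and 5.36 in CTRL and 2836 and 3986 in LHSR12 (log2 fold change 9.04 ± 0.30 (SE), adjusted p = 5.63e-07). The lipoxygenase LOX4 rose by 3.58 and the repressors JAZ5 and JAZ9 by 3.78 and 2.00, whereas the regulator MYC2 (-0.11) and OPR3 (0.23) did not pass the test. VSP1 (AT5G24780), a vegetative storage protein, had 574 and 1135 in CTRL and 92.7 and 94.4 in LHSR12 (log2 fold change -3.10 ± 0.37 (SE), adjusted p = 2.63e-04), and AOC2 (AT3G25770), an allene oxide cyclase, had 4402 and 6201 in CTRL and 732 and 797 in LHSR12 (log2 fold change -2.77 ± 0.16 (SE), adjusted p = 6.05e-06). The list thus held both the TAT3 rise and clear falls of VSP1 and AOC2. ERF1 (AT3G23240), which joins the ethylene and jasmonic acid branches, had 5.42 and 2.15 in CTRL and 98.8 and 130 in LHSR12 (log2 fold change 4.67 ± 0.53 (SE), adjusted p = 1.78e-04), and the defensin PDF1.2A had a change of 0.00, which did not pass.

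**Figure D4:**
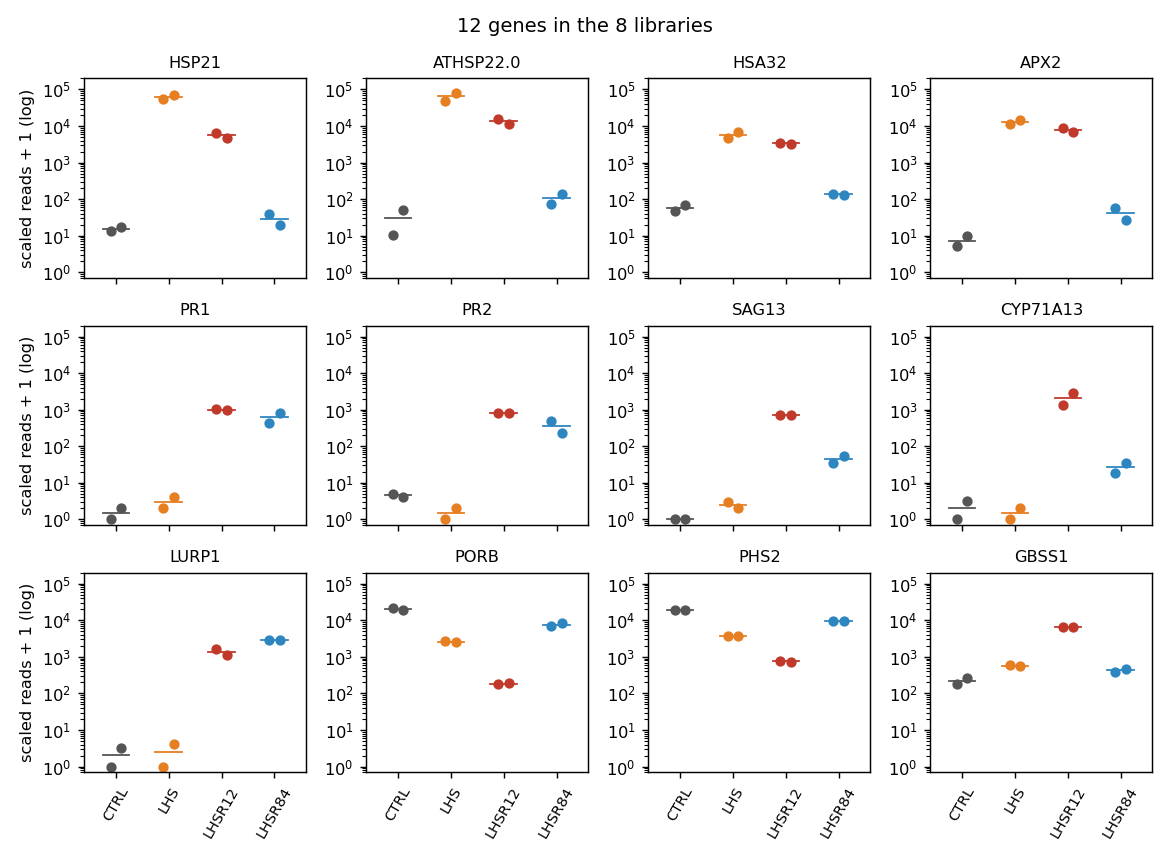
Scaled reads plus 1 on a log axis for 12 genes in the 2 libraries (points) of each of the 4 groups, with a line at the group mean. HSP21, ATHSP22.0, HSA32 and APX2 are highest in LHS, PR1, PR2, SAG13 and CYP71A13 stand at 5 or fewer scaled reads in CTRL and LHS, and PORB and PHS2 are lowest in LHSR12.

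Most photosynthesis genes listed fell. Of 18 light-harvesting genes, which encode the antenna proteins, 0 rose and 16 fell (median -1.94). With edgeR, with DESeq2 or with the replicate number as a block, 1 was higher. Of 23 photosystem and electron transport genes 22 fell (median -1.66). LHCB1.4 (AT2G34430) had 111194 and 42606 in CTRL and 195 and 204 in LHSR12 (log2 fold change -8.42 ± 0.40 (SE), adjusted p = 1.93e-06), and its family member LHCB1.3 (AT1G29930) had 701445 and 481598 in CTRL and 50493 and 54797 in LHSR12 (log2 fold change -3.47 ± 0.30 (SE), adjusted p = 4.78e-05). LHCB1 copies are near identical, and how reads that match several copies were counted is not given in the sources used here, so the split among copies is uncertain. The list was higher in CTRL replicate 1 than in CTRL replicate 2 by a median of 0.83 on the log2 scale. FNR2 (AT1G20020), a ferredoxin reductase, had 42770 and 34178 in CTRL and 2364 and 2938 in LHSR12 (log2 fold change -3.86 ± 0.15 (SE), adjusted p = 9.93e-07).

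In the Calvin cycle and photorespiration, 2 of 24 genes rose and 15 fell (median -0.73). The fall included PGK1 (AT3G12780), phosphoglycerate kinase, with 36800 and 35004 in CTRL and 11284 and 13062 in LHSR12 (log2 fold change -1.56 ± 0.14 (SE), adjusted p = 6.22e-05). FBA1 (AT2G21330), a plastid aldolase, rose, with 8702 and 9221 in CTRL and 20798 and 20807 in LHSR12 (log2 fold change 1.22 ± 0.12 (SE), adjusted p = 7.73e-05). The other riser, the glycolate oxidase GOX1 at 0.67, was not called without LHSR12 replicate 2, which left 1.

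Chlorophyll synthesis had 3 of 15 genes higher and 9 lower (median -0.55). PORB (AT4G27440), which reduces protochlorophyllide in the light, had 21958 and 19038 in CTRL and 178 and 188 in LHSR12 (log2 fold change -6.79 ± 0.12 (SE), adjusted p = 1.37e-07). The first enzyme of the pathway, HEMA1 (AT1G58290), rose, with 5964 and 4429 in CTRL and 10520 and 10980 in LHSR12 (log2 fold change 1.06 ± 0.15 (SE), adjusted p = 7.35e-04), as did GUN4 (0.77), which stimulates magnesium chelatase. The third riser, CAO at 0.88, which makes chlorophyll b, was not called without LHSR12 replicate 2. Chlorophyll breakdown was split, 3 of 9 higher and 2 lower (median 0.55). SGR1 (AT4G22920), which removes magnesium from chlorophyll, had 203 and 186 in CTRL and 657 and 783 in LHSR12 (log2 fold change 1.88 ± 0.14 (SE), adjusted p = 2.38e-05). The enzymes that convert chlorophyll b to chlorophyll a fell, HCAR (AT1G04620) with 947 and 807 in CTRL and 104 and 118 in LHSR12 (log2 fold change -2.97 ± 0.13 (SE), adjusted p = 1.55e-06) and NYC1 by 2.03.

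Starch metabolism changed in most of its steps, with 6 of 25 genes higher and 16 lower (median -0.90). The genes that fell included enzymes of starch degradation at night. PHS2 (AT3G46970), the cytosolic glucan phosphorylase, had 18623 and 18875 in CTRL and 771 and 722 in LHSR12 (log2 fold change -4.65 ± 0.10 (SE), adjusted p = 1.82e-07). DPE1 (AT5G64860), which joins maltotriose units in the plastid, had 2181 and 2032 in CTRL and 120 and 151 in LHSR12 (log2 fold change -3.96 ± 0.13 (SE), adjusted p = 5.83e-07). AMY3, SEX1 and PWD, an amylase and the kinases that loosen the granule, fell by 3.81, 3.18 and 3.08. The libraries of each group agreed closely in PHS2 and DPE1. GBSS1 (AT1G32900), the synthase that makes amylose, had 183 and 266 in CTRL and 6429 and 6605 in LHSR12 (log2 fold change 4.88 ± 0.18 (SE), adjusted p = 7.60e-07), and LHS had a mean of 578. APL3, a subunit of the pyrophosphorylase that makes ADP-glucose, rose by 2.83, and the beta-amylases BAM1, BAM5 and BAM9 rose by 2.27, 3.09 and 2.46. BAM3, the main leaf beta-amylase, did not pass the test (4157 and 5235 in CTRL and 4689 and 4641 in LHSR12, change 0.00).

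Genes of sugar starvation and branched-chain amino acid breakdown gave 3 of 23 higher and 7 lower (median -0.53), and this count rested on the controls. It was 15 lower without CTRL replicate 2 and 4 lower without LHSR12 replicate 1, and the list stood higher in CTRL replicate 1 than in CTRL replicate 2 by a median of 0.73. ASN1 (AT3G47340), an asparagine synthetase repressed by sugar, had 2868 and 198 in CTRL and 84.3 and 82.0 in LHSR12 (log2 fold change -3.17, adjusted p = 0.0445). It was not called without CTRL replicate 1 or without any 1 of the LHS, LHSR12 and LHSR84 libraries. The largest rises of the list stayed called whichever library was left out. SWEET15 (AT5G13170), a sucrose exporter of senescing leaves and seeds, had 90.8 and 85.8 in CTRL and 5995 and 5501 in LHSR12 (log2 fold change 6.01 ± 0.17 (SE), adjusted p = 3.93e-07), and PPDK (AT4G15530), pyruvate phosphate dikinase, had 939 and 741 in CTRL and 10406 and 11667 in LHSR12 (log2 fold change 3.72 ± 0.14 (SE), adjusted p = 7.60e-07).

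Of 24 flavonoid and anthocyanin genes 15 rose and 3 fell, with changes from -2.03 to 4.72. The genes of the late, anthocyanin-making steps rose, DFR by 3.38 ± 0.97, LDOX by 2.97 ± 0.64 and the transferase TT19 by 3.27 ± 0.86, against 1.51 ± 0.32 for CHS, which opens the pathway. Of these, all 4 were not called without LHSR12 replicate 1, DFR and TT19 not without LHSR12 replicate 2, DFR not without CTRL replicate 1 and TT19 not without either LHS library. PAP2 (AT1G66390), a MYB factor that switches on anthocyanin genes, had 0 and 1.07 in CTRL and 34.5 and 39.4 in LHSR12, a read ratio of 61.7 (exact 95% interval 10.8 to 2463) at adjusted p = 4.82e-04. The list was lower in CTRL replicate 1 than in CTRL replicate 2 by a median of 1.12. Without LHSR12 replicate 1 5 were higher and 1 lower, without LHSR12 replicate 2 8 and 0, and without CTRL replicate 1 5 were lower.

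Genes of light protection gave 5 of 8 higher and 1 lower (median 0.63), with 2 lower without either CTRL library. ELIP2 (AT4G14690), an early light-induced protein, had 51.5 and 67.6 in CTRL and 1698 and 1769 in LHSR12 (log2 fold change 4.85 ± 0.27 (SE), adjusted p = 4.26e-06), and ELIP1 (AT3G22840) had 115 and 223 in CTRL and 2056 and 1597 in LHSR12 (log2 fold change 3.49 ± 0.29 (SE), adjusted p = 3.51e-05). VDE1 (AT1G08550), violaxanthin de-epoxidase, fell, with 4771 and 3473 in CTRL and 667 and 672 in LHSR12 (log2 fold change -2.60 ± 0.17 (SE), adjusted p = 1.13e-05). The antioxidant enzymes gave 8 of 14 higher and 2 lower (median 0.42), and 4 lower without CTRL replicate 1. The catalases parted, as CAT2 (AT4G35090) of peroxisomes in green tissue had 11578 and 9524 in CTRL and 51433 and 50698 in LHSR12 (log2 fold change 2.28 ± 0.22 (SE), adjusted p = 7.95e-05), while CAT1 and CAT3 fell by 1.34 and 0.88.

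The genes of alternative respiration, which bypasses the proton-pumping complexes of mitochondria, gave 10 of 14 higher and 1 lower (median 2.07). AOX1D (AT1G32350), an alternative oxidase, had 2.71 and 1.07 in CTRL and 315 and 589 in LHSR12, a read ratio of 251 (exact 95% interval 85.8 to 1221) at adjusted p = 2.43e-05. AOX1A, the best-studied member, rose by 0.89 ± 0.12, and the alternative dehydrogenases NDB2 and NDA1 by 2.53 and 3.46. NAC013, a factor of mitochondrial retrograde signalling, rose by 2.44, and NAC017 did not pass the test at 0.27. The 1 member that fell, AOX2 with 8.13 and 6.44 in CTRL and 0 and 2.32 in LHSR12, was not called without either CTRL library, without either LHS library or without LHSR12 replicate 1.

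Of 16 iron genes 1 rose and 9 fell (median -1.37), with 5 lower without LHSR12 replicate 1. IRT1 (AT4G19690), the iron transporter of the root surface, had 603 and 342 in CTRL and 1.53 and 3.09 in LHSR12 (log2 fold change -7.14 ± 0.55 (SE), adjusted p = 2.33e-05), and FRO2 (AT1G01580), the reductase that supplies it, had 612 and 401 in CTRL and 26.8 and 15.5 in LHSR12 (log2 fold change -4.54 ± 0.34 (SE), adjusted p = 2.06e-05). FIT, the factor that switches both on, fell by 1.26. FER1 (AT5G01600), the iron store ferritin, rose, with 3283 and 3931 in CTRL and 9910 and 10334 in LHSR12 (log2 fold change 1.49 ± 0.20 (SE), adjusted p = 4.22e-04). PYE, BTS and OPT3 had changes of 0.07, 0.13 and 0.01 and did not pass. Iron uptake is a root function, and root markers also fell, as given below; their part in the result was not tested.

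Nitrogen genes gave 2 of 12 higher and 7 lower (median -0.55). AMT1;2 (AT1G64780), an ammonium transporter, had 561 and 487 in CTRL and 3654 and 4015 in LHSR12 (log2 fold change 2.87 ± 0.15 (SE), adjusted p = 2.81e-06). GLN2 (AT5G35630), the plastid glutamine synthetase, had 42765 and 33536 in CTRL and 14585 and 16275 in LHSR12 (log2 fold change -1.30 ± 0.17 (SE), adjusted p = 4.24e-04). The other riser, the nitrate reductase NIA2 at 0.88, was not called in any fit that left out 1 library other than CTRL replicate 1, which gave 1 higher, and its relative NIA1 at -1.99 was not called without either LHSR12 library. Aquaporins gave 4 of 19 higher and 9 lower (median -0.51). PIP2;1 (AT3G53420) of the plasma membrane had 10873 and 7585 in CTRL and 24611 and 24309 in LHSR12 (log2 fold change 1.43 ± 0.17 (SE), adjusted p = 2.19e-04), while TIP2;3 (AT5G47450) of the vacuole had 1262 and 609 in CTRL and 85.0 and 161 in LHSR12 (log2 fold change -2.90 ± 0.44 (SE), adjusted p = 8.86e-04). All 6 vacuolar aquaporins but TIP1;1, at 0.00, fell.

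Of 20 cell division genes 3 rose and 16 fell (median -1.51). The genes that fell act in mitosis, such as CDC20.1 (AT4G33270), an activator of the anaphase complex, with 1040 and 1355 in CTRL and 145 and 186 in LHSR12 (log2 fold change -2.85 ± 0.18 (SE), adjusted p = 9.87e-06), and the cyclin CYCB1;2, which fell by 2.57. The genes that rose inhibit the cycle. SMR5 (AT1G07500), a kinase inhibitor known from DNA damage and oxidative stress, had 2.71 and 4.29 in CTRL and 359 and 317 in LHSR12 (log2 fold change 6.26 ± 0.40 (SE), adjusted p = 9.72e-06), and SMR7 (AT3G27630) had 19.0 and 15.0 in CTRL and 210 and 137 in LHSR12 (log2 fold change 3.25 ± 0.40 (SE), adjusted p = 3.10e-04). KRP1 rose by 0.83 but was not called without CTRL replicate 1 or either LHSR12 library. Replication genes gave 0 of 14 higher and 6 lower (median -0.49), and 3 lower without LHSR12 replicate 1.

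Wall genes had no common direction. Expansins and xyloglucan enzymes gave 6 of 22 higher and 9 lower (median -0.17), with 3 higher without LHSR12 replicate 1. XTH23 (AT4G25810) had 118 and 74.0 in CTRL and 1143 and 1062 in LHSR12 (log2 fold change 3.55 ± 0.21 (SE), adjusted p = 5.90e-06), and XTH9 (AT4G03210) had 3385 and 3935 in CTRL and 702 and 790 in LHSR12 (log2 fold change -2.29 ± 0.19 (SE), adjusted p = 3.17e-05). Cellulose genes gave 3 of 10 higher and 4 lower (median -0.24), and 2 lower without LHSR12 replicate 2. The secondary-wall subunits CESA7 and CESA8 rose by 0.69 and 0.91, and the primary-wall subunit CESA3 fell by 0.66. Auxin genes gave 5 of 13 higher and 3 lower (median 0.26), with 3 higher without CTRL replicate 1, without LHSR12 replicate 2 or without either LHS library. The auxin exporters parted, as PIN3 (AT1G70940) had 2028 and 2064 in CTRL and 4610 and 4011 in LHSR12 (log2 fold change 1.07 ± 0.11 (SE), adjusted p = 1.12e-04) and PIN7 (AT1G23080) had 5636 and 4780 in CTRL and 2174 and 2234 in LHSR12 (log2 fold change -1.24 ± 0.11 (SE), adjusted p = 4.59e-05). Brassinosteroid and gibberellin genes gave 3 of 12 higher and 5 lower (median -0.29), among them DWF4 (AT3G50660), an enzyme of brassinosteroid synthesis, with 959 and 995 in CTRL and 461 and 461 in LHSR12 (log2 fold change -1.08 ± 0.12 (SE), adjusted p = 1.65e-04).

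Abscisic acid genes gave 12 of 20 higher and 4 lower (median 0.81). The risers included the phosphatases that damp the signal, HAI1 (AT5G59220) with 28.4 and 63.3 in CTRL and 457 and 524 in LHSR12 (adjusted p = 1.06e-04), HAI3 (3.13), HAB1 (2.97) and ABI2 (1.04). The receptors PYR1 and PYL6 fell by 1.03 and 1.89. ABF3, a factor of the response, rose (2.44), and the dehydrin RAB18 (AT5G66400) fell (1001 and 1255 in CTRL and 131 and 145 in LHSR12, log2 fold change -3.02 ± 0.58 (SE), adjusted p = 0.00313). Cold-regulated genes gave 3 of 15 higher and 8 lower (median -0.83), and 5 lower without LHSR12 replicate 2. COR15B (AT2G42530), a chloroplast protein of freezing tolerance, had 1298 and 1673 in CTRL and 9.96 and 19.3 in LHSR12 (log2 fold change -6.63 ± 0.32 (SE), adjusted p = 2.13e-06), and KIN1 (AT5G15960) had 414 and 820 in CTRL and 6234 and 4575 in LHSR12 (log2 fold change 3.19 ± 0.33 (SE), adjusted p = 1.15e-04).

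Glucosinolates are stored defence compounds. Of 13 genes of the indole class 4 rose and 4 fell (median 0.01), with 2 and 1 higher without LHSR12 replicate 1 and LHSR12 replicate 2. IGMT1 (AT1G21100), a methyltransferase of the side chain, had 1581 and 635 in CTRL and 26.8 and 44.1 in LHSR12 (log2 fold change -4.82 ± 0.40 (SE), adjusted p = 3.56e-05), and the hydroxylase CYP81F3 fell by 3.17. SUR1 (AT2G20610), the lyase of the core pathway, had 1886 and 2399 in CTRL and 3922 and 4391 in LHSR12 (log2 fold change 0.96 ± 0.17 (SE), adjusted p = 0.00215). The aliphatic class gave 8 of 19 higher and 0 lower (median 0.91), a count that depended on single libraries. It was 3 higher and 1 lower without CTRL replicate 1, 2 higher without LHSR12 replicate 1, 1 higher without LHSR12 replicate 2 and 15 higher without either LHS library, with edgeR or with DESeq2. FMO-GSOX3 (AT1G62560), which oxidises the side chain, had 467 and 980 in CTRL and 2261 and 2251 in LHSR12 (log2 fold change 1.74 ± 0.28 (SE), adjusted p = 0.00134).

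Endoplasmic reticulum stress genes gave 7 of 16 higher and 0 lower (median 0.33), with 12 higher without CTRL replicate 2 and 3 lower without CTRL replicate 1. NAC103 (AT5G64060), a factor of this response, had 23.0 and 32.2 in CTRL and 319 and 214 in LHSR12 (log2 fold change 3.22 ± 0.25 (SE), adjusted p = 2.44e-05). Autophagy genes gave 6 of 21 higher and 1 lower (median 0.16), with 3 higher without LHSR12 replicate 2 and 3 lower without CTRL replicate 2. The ATG8 proteins, which coat the autophagosome, parted, as ATG8B (AT4G04620) had 596 and 452 in CTRL and 1832 and 1751 in LHSR12 (log2 fold change 1.79 ± 0.14 (SE), adjusted p = 2.19e-05) and ATG8D (AT2G05630) had 626 and 559 in CTRL and 251 and 288 in LHSR12 (log2 fold change -1.13 ± 0.12 (SE), adjusted p = 1.52e-04). Senescence genes gave 8 of 11 higher and 1 lower (median 1.87), led by SAG13 (AT2G29350), an alcohol dehydrogenase-like protein with 0 and 0 in CTRL and 713 and 695 in LHSR12, at least 193-fold higher (adjusted p = 1.40e-06). NAP (AT1G69490), a NAC factor of leaf senescence, had 16.3 and 27.9 in CTRL and 624 and 1005 in LHSR12 (log2 fold change 5.15 ± 0.32 (SE), adjusted p = 8.31e-06). The 1 member that fell, ORS1 at -0.87, was not called without CTRL replicate 1, either LHS library, LHSR12 replicate 1 or LHSR84 replicate 1.

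Ribosome genes stayed near the background median. Of 20 nucleolar genes of ribosome assembly 0 rose and 1 fell (median 0.08). The member that fell was NUC1 (AT1G48920), a nucleolin, with 7901 and 11824 in CTRL and 4341 and 3726 in LHSR12 (log2 fold change -1.26 ± 0.20 (SE), adjusted p = 0.00107). The count was 7 higher without CTRL replicate 2, 3 lower without CTRL replicate 1, 2 lower without LHSR12 replicate 1 and 1 higher without LHSR12 replicate 2. Of 56 ribosomal protein genes 8 rose and 2 fell (median 0.03), and without CTRL replicate 1 4 were higher and 12 lower. Between 2 and 5 were higher and 0 lower without either LHSR12 or either LHS library, 0 were lower without CTRL replicate 2, and 1 was lower without either LHSR84 library. edgeR on the reads gave 5 higher and 0 lower. The silencing machinery gave 1 of 17 higher and 8 lower (median -0.36), with 3 lower without LHSR12 replicate 2. SDC (AT2G17690), an F-box gene silenced by DNA methylation, had 12.2 and 9.65 in CTRL and 368 and 372 in LHSR12 (log2 fold change 4.97 ± 0.37 (SE), adjusted p = 2.12e-05), and ROS1 (AT2G36490), a DNA demethylase, had 964 and 1204 in CTRL and 211 and 240 in LHSR12 (log2 fold change -2.25 ± 0.19 (SE), adjusted p = 3.97e-05). The 1 riser of the list, SDC, is thus a target of silencing and not part of the machinery. The largest fall was that of ROS1, which removes DNA methylation.

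Markers of single cell types were read as a check of the tissue. All 18 root markers were detected beside the leaf genes above, as in whole seedlings. 2 root markers rose and 10 fell (median -1.35), with 6 lower without LHSR12 replicate 2, and their summed level was 117586 and 146808 in CTRL and 32522 and 34453 in LHSR12. BGLU21 (AT1G66270), a root beta-glucosidase, had 5628 and 6180 in CTRL and 431 and 627 in LHSR12 (adjusted p = 4.14e-05). SCR and SHR, which pattern the ground tissue, rose by 0.87 and 0.54, while PLT1 of the root tip fell by 2.04. Seed markers gave 0 of 5 higher and 2 lower (median -3.04), with 1 lower without CTRL replicate 2 or either LHSR12 or LHSR84 library and 3 without CTRL replicate 1. With edgeR or DESeq2 on the reads 5 of 5 were lower, and 4 with no group but CTRL and LHSR12 in the fit. Their summed level was 825 and 2868 in CTRL and 149 and 88.9 in LHSR12. Wax genes gave 1 of 8 higher and 1 lower (median 0.03), with 0 higher without LHSR12 replicate 1, and fatty acid desaturases 1 of 7 higher and 3 lower (median -0.24). Stomatal lineage markers gave 1 of 9 higher and 3 lower (median -0.08), and the riser, SDD1, was not called without either LHSR12 library, nor without CTRL replicate 2, where 1 other member was higher.

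**Figure D5:**
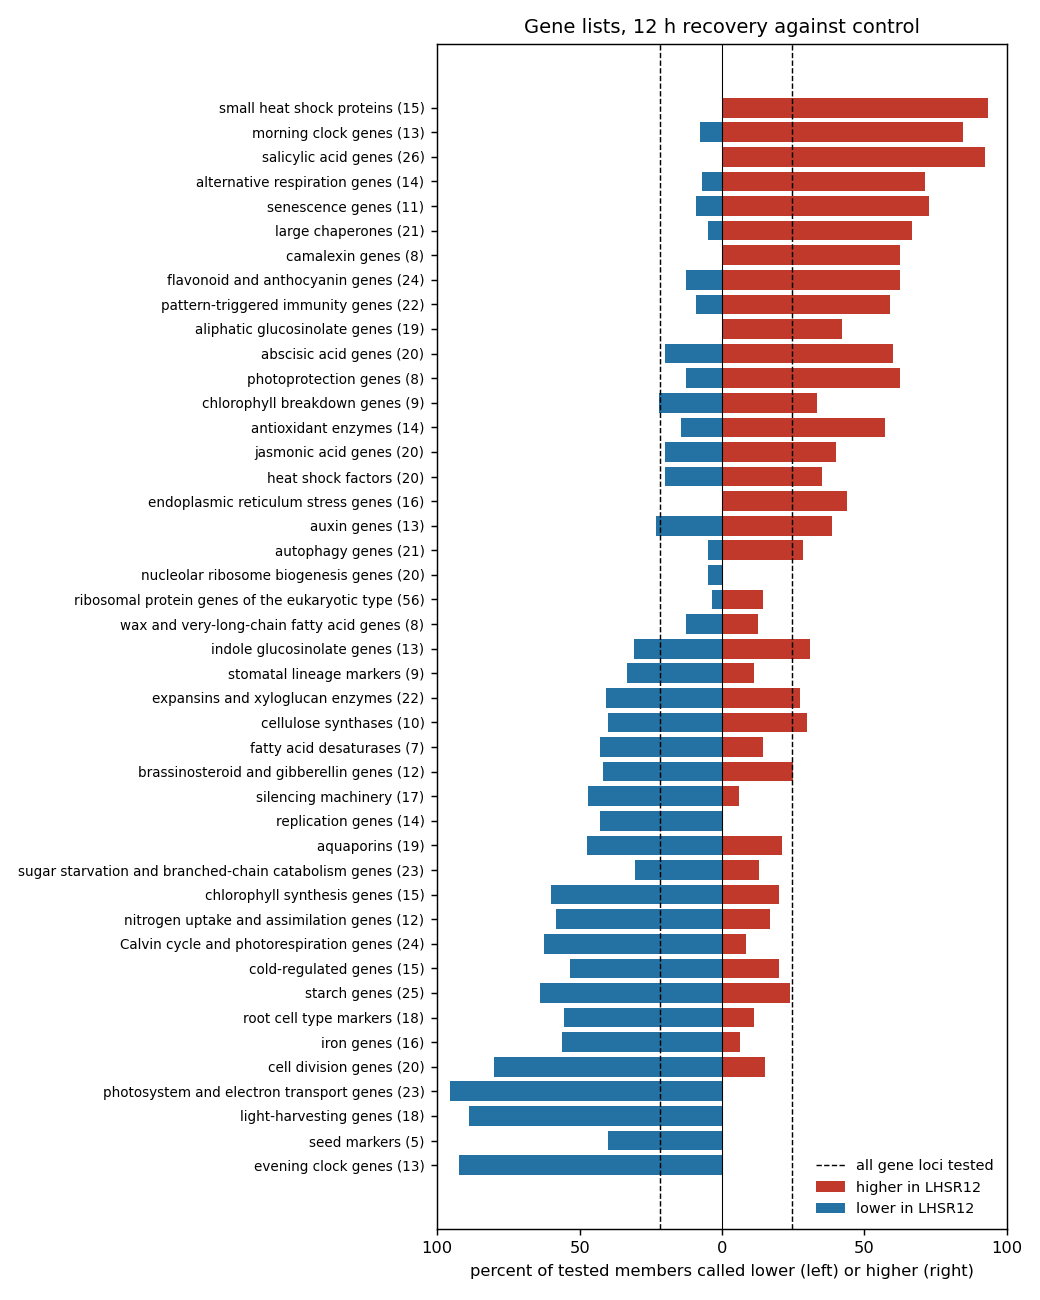
Bars give, for each of 44 gene lists with its number of tested genes in brackets, the percent called lower (blue, left) and higher (red, right) in LHSR12, in order of the median change. Dashed lines mark the shares over all gene loci, 21.7% lower and 24.4% higher. The lists were chosen with earlier results of these data known, so the distance from these lines is not a test.

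The RNA measured here also held precursors of microRNAs, short RNAs that guide the cleavage of matching messenger RNAs. Of 112 precursor loci 3 rose and 24 fell (median -0.59), against 24.4% and 21.7% of all gene loci. The share that fell was thus near that of all gene loci, and the share that rose lay below it. An adjusted p of 0.01 left 2 higher and 12 lower, and edgeR and DESeq2 on the reads each called 3 higher and 16 lower. Without CTRL replicate 1 15 fell, and 5 rose without CTRL replicate 2, either LHS library or either LHSR84 library. The library reads precursor transcripts and not the mature microRNAs. MIR824 had 118 and 144 in CTRL and 1092 and 1015 in LHSR12 (log2 fold change 3.01 ± 0.14 (SE), adjusted p = 1.87e-06), so both recovering libraries lay above both controls, and its target AGL16, a factor of the stomatal lineage, did not pass the test (713 and 575 in CTRL and 532 and 612 in LHSR12, change -0.17). The precursors that fell included pairs with the same seed (bases 2 to 8, in capitals). These were MIR396a and MIR396b, known to target growth-regulating factors, MIR164b and MIR164c, known to target NAC factors, and MIR167a and MIR167d, known to target auxin response factors. Not every precursor with a shared seed was called. MIR167b, with the seed of MIR167a, did not pass the test at -1.15 ± 0.77 (SE), and MIR167a had -1.50 ± 0.42. MIR160c fell by 2.90 ± 0.63, whereas MIR160a (-0.22 ± 0.54) and MIR160b (-1.21 ± 0.69), which hold the same mature sequence, did not pass. Differences between precursors were not tested. The mature sequences of the pairs that fell, with MIR824 and MIR398b, are shown from RefSeq TAIR10.1.
miR824-5p: uAGACCAUuugugagaaggga
miR396a-5p: uUCCACAGcuuucuugaacug
miR396b-5p: uUCCACAGcuuucuugaacuu
miR164b-5p: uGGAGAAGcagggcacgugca
miR164c-5p: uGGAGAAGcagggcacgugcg
miR167a-5p: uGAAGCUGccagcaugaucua
miR167d: uGAAGCUGccagcaugaucugg
miR398b-3p: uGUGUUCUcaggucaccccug
MIR396b had 67.7 and 57.9 in CTRL and 10.7 and 17.0 in LHSR12 (log2 fold change -2.13 ± 0.37 (SE), adjusted p = 0.00202), and MIR167d had 595 and 304 in CTRL and 123 and 107 in LHSR12 (log2 fold change -1.87 ± 0.31 (SE), adjusted p = 0.00146). MIR164b had 31.2 and 29.0 in CTRL and 1.53 and 7.73 in LHSR12 (log2 fold change -2.72 ± 0.55 (SE), adjusted p = 0.00427). MIR164c had few reads, with 10.8 and 4.29 in CTRL and 0 and 1.55 in LHSR12 (log2 fold change -2.31 ± 0.70 (SE)). It was not called with edgeR, with DESeq2, with a pseudocount of 0.1 or with only the compared groups in the fit. ORE1, a senescence factor and target of miR164, had 226 and 138 in CTRL and 312 and 517 in LHSR12 (log2 fold change 1.18 ± 0.30 (SE), adjusted p = 0.0120). MIR398b had 307 and 174 in CTRL and 72.0 and 84.3 in LHSR12 (log2 fold change -1.56 ± 0.28 (SE), adjusted p = 0.00232). MIR398c, whose mature miR398 is the same in sequence, had the higher level of the pair and did not pass the test, with 1210 and 1345 in CTRL and 811 and 767 in LHSR12 (log2 fold change -0.69 ± 0.26 (SE), adjusted p = 0.0585). CSD1, the copper superoxide dismutase that miR398 is known to target, had 566 and 541 in CTRL and 1633 and 1970 in LHSR12 (log2 fold change 1.70 ± 0.15 (SE), adjusted p = 5.84e-05). MIR164c was not called without CTRL replicate 1 or LHSR12 replicate 1, MIR167a not without CTRL replicate 1 or LHSR12 replicate 1, and ORE1 not without CTRL replicate 2 or LHSR12 replicate 2. The precursors and targets were paired from background knowledge after their values were seen.

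Loci of the annotated class pseudogene stood apart from protein-coding genes in direction. Of 854 pseudogene loci 471 rose and 29 fell (median 2.00), against 5371 and 5187 of 22797 protein-coding loci (median 0.03). The separate class of transcribed pseudogenes showed much less of this, with 53 of 286 higher and 31 lower (median 0.23). Testing required a mean of at least 1 over the 8 libraries, so loci with no read in CTRL entered only through other groups. With no filter on low values, 461 pseudogene loci rose and 24 fell, against 5033 and 4810 protein-coding loci. Without LHSR12 replicates 1 and 2 in turn, 13 and 19 pseudogene loci fell. On the recovered reads, DESeq2 called 242 pseudogene loci higher and 22 lower and edgeR 324 and 26, against 4437 and 4723 protein-coding loci with DESeq2 and 4793 and 5052 with edgeR. The element loci of the table, whose identifiers follow the naming of transposable elements, also had more risers than fallers. Of 3014 tested, 1058 (35.1%) were called, 862 (28.6%) higher and 196 (6.5%) lower (median 0.52), and 520 of the risers had no read in either CTRL library. Without LHSR12 replicate 1 125 were lower. With no filter on low values, 1029 of 6839 element loci were higher and 193 lower (median 0.14). Element loci held 0.586% and 0.627% of scaled reads in CTRL, 3.58% and 4.39% in LHS, and 2.15% and 1.76% in LHSR12. The share in LHSR12 thus lay between those of the heated and the control seedlings. The element AT3TE92525 had 21.7 and 54.7 in CTRL and 51997 and 36782 in LHSR12 (log2 fold change 10.27 ± 0.38 (SE), adjusted p = 7.60e-07). In the other direction AT4TE10030 had 169 and 112 in CTRL and 0 and 0 in LHSR12 and was at least 60.8-fold lower (adjusted p = 1.02e-04), and AT4TE32400 had 192 and 198 in CTRL and 7.66 and 3.87 in LHSR12 (log2 fold change -4.92 ± 0.37 (SE), adjusted p = 2.02e-05). All 3 were picked with their values known, from the largest changes among element loci with a mean of at least 50. The element loci have no annotation in the reference used here, and whether reads of near-identical copies can be told apart is not given in the sources used here.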

How the data were processed

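Per the labels, TRIzol was used to extract total RNA of seedlings, and the libraries were strand-specific. STAR 2.5.3a and HTSeq 0.9.1 are listed in the submitters' processing notes, as are DESeq2 1.14.1, CASAVA and the build TAIR10, with no roles given. Strand use in counting is not given in the sources used here, so overlapping and antisense loci may share reads. The deposited signal per locus is the authors' read count divided by 1 factor per library, as 100% of values in each of the 8 libraries were whole multiples of the value of 1 read (tolerance 0.001). LHS replicate 1, with a step of 1.00142, was nevertheless left out of the fits on reads.

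The table holds 64512 loci (33323 gene and 31189 element loci). Loci with a mean of at least 1 over the 8 libraries were tested, which left 27638. limma-trend 3.58.1 (R 4.3.3) was fitted to log2(value + 1) of all 8 libraries, with LHSR12 minus CTRL as contrast, two-sided and Benjamini-Hochberg adjusted over all loci. A count test had been named for a table of counts, and limma was used because the values are not counts. The fit was tested on simulated data, with 50 changed loci at each fold. It called 8% of 1.5-fold, 36% of 2-fold, 76% of 4-fold and 86% of 8-fold changes, with 2 false calls. A gene that did not pass the test may therefore still have changed. The members and the 44 lists were chosen with earlier results of these data known. Of 752 list places, 748 were tested. Named genes were the 10 largest rises and falls among called loci with a symbol, a mean of at least 50 and groups that do not overlap, and, of each list, at most 2 called members in each direction. Other members given as examples were chosen after their values were seen.

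Names, promoters and microRNAs came from the RefSeq TAIR10.1 annotation, which matched 32835 gene loci by identifier. Read ratios of genes with 1 to 3 reads in a group carry exact Clopper-Pearson 95% intervals, and genes with none use a floor of 3 reads per library. These cover counting error only. edgeR 4.0.16 and DESeq2 1.42.0 on the recovered reads of 7 libraries were alternatives, and called 5242 and 4778 gene loci higher and 5190 and 4842 lower. The others were an adjusted p of 0.01, a minimum of 2-fold, no filter on low values, a pseudocount of 0.1, only the groups compared, a replicate block, TMM scaling, and each library left out.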

Additional observations from a re-analysis of the deposited data

How the results depend on the processing

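Numbers of calls give the gene loci higher and lower and the element loci higher and lower in LHSR12, which were 5999, 5343, 862 and 196. A further minimum of 2-fold left 3559 and 3096 gene loci. DESeq2 on the reads of 7 libraries left 458 higher and 127 lower element loci, and an adjusted p of 0.01 left 91 lower ones. Leaving out each of the 8 libraries gave 4095 to 5679 and 3702 to 4966 gene loci and 625 to 846 and 125 to 187 element loci. The lowest of these counts came without LHSR12 replicate 1. All other settings kept each count within 1.5 times. Of 88 counts of lists, higher and lower, a minimum of 2-fold moved 27 by over 1.5 times, an adjusted p of 0.01 13, and edgeR, DESeq2 and a fit of the compared groups alone 8 each. Leaving out either LHSR12 library moved more of these counts than an adjusted p of 0.01 did. Leaving out either CTRL library moved more than edgeR did. No named gene changed direction, and 152 of 2583 of their values under an alternative were no longer called. The replicate numbers did not pair the libraries, as the replicate differences of CTRL and LHSR12 correlated at -0.06 across loci. With the replicate number as a block, 5889, 5239, 837 and 189 loci were called. The share of called gene loci that were higher was 52.9%, and 50.2% with edgeR and 49.7% with DESeq2.

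The limits are those of 2 libraries per group. The CTRL libraries were the shallowest pair of the comparison and differed most from each other, and genes of light, sugar and anthocyanin lists differed between them. Lists near the threshold, such as the aliphatic glucosinolate genes, gained or lost calls when 1 library was left out. Time of day and age at harvest cannot be told apart from the treatment.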

Other observations

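The values in this section were looked up after the results above were seen. CYP716A2 and PEN3, among the largest falls, are neighbours on chromosome 5, and AT5G36130, beside them, had 84.0 and 122 in CTRL and 0 and 0 in LHSR12, at least 44.7-fold lower (adjusted p = 1.24e-05). The next locus, AT5G36160, had 623 and 554 in CTRL and 1285 and 1410 in LHSR12 and rose (adjusted p = 9.70e-05). Arabidopsis holds further sets of neighbouring triterpene genes. In the set that makes thalianol, a root triterpene, all 4 genes looked at fell. The thalianol synthase THAS1 (AT5G48010) had 1980 and 3770 in CTRL and 283 and 359 in LHSR12 (log2 fold change -3.09 ± 0.32 (SE), adjusted p = 1.20e-04), and the P450 enzymes CYP708A2 and CYP705A5 fell, with log2 fold changes of -3.32 and -3.15. AT5G47980, an acyltransferase in the same set, had 194 and 520 in CTRL and 18.4 and 14.7 in LHSR12 (log2 fold change -4.19 ± 0.52 (SE), adjusted p = 2.91e-04). In the set of marneral, the marneral synthase MRN1 (AT5G42600) had 683 and 851 in CTRL and 1007 and 592 in LHSR12 and did not pass the test (log2 fold change 0.02 ± 0.33 (SE), adjusted p = 0.979), nor did CYP71A16 at -0.42. CYP705A12, a P450 gene of the same set, rose, with 470 and 705 in CTRL and 1373 and 944 in LHSR12 (log2 fold change 0.98 ± 0.23 (SE), adjusted p = 0.00834), and was not called without LHSR12 replicate 1. In LHS the mean of MRN1 was 35.7 and that of THAS1 29.7. Thalianol synthase is known from roots, and the root markers also fell, whose part in the result was not tested.

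Gene products were grouped by their annotated family, which gave 104 families with at least 20 tested loci. The families with the largest shares of risers, apart from the heat shock family, were the acyl-CoA N-acyltransferases (12 of 25), the CC-NBS-LRR disease resistance proteins (10 of 22) and the UDP-glycosyltransferases (33 of 80), against 24.4% of all gene loci. The largest shares of fallers were found in the mannose-binding lectins (17 of 27), the family 17 glycosyl hydrolases (14 of 26), the peroxidases (28 of 55) and the leucine-rich repeat kinases (57 of 117), against 21.7% of all. Members of a family can be near copies of each other and are not independent.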
